A study of Mus musculus with 24 samples.

Results

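The genes described here form the NRF2 antioxidant and redox module, a list of 36 mouse genes for thioredoxin, glutathione, NADPH supply, superoxide removal, metal binding and the regulators of this response. A member was represented by the row of the deposited array table whose single gene symbol matched it, and by the brightest such row where several did. This gave 33 members among 19938 genes with a row of 1 symbol, and all 33 passed the filter on dim rows that left 14489 genes to test. Prdx5, Prdx6 and G6pdx, which encode 2 peroxiredoxins and the first enzyme of the pentose phosphate pathway, had no row with a single symbol and were not analysed here. Of the members tested, 7 belong to thioredoxin, 11 to glutathione and 4 to NADPH supply. The other groups hold 2 regulators, 3 enzymes against superoxide and hydrogen peroxide, 2 metallothioneins and 4 further targets.

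The cells were MLO-Y4, a mouse osteocyte-like line, and total RNA was hybridised to 24 Affymetrix arrays. Dishes were treated either with Cx43(E2), an antibody that blocks hemichannels of connexin 43 (the E2 arm), or with an irrelevant rabbit IgG (the IgG arm), both diluted 1:50, with Cx43(E2) at 28 µg/ml, for 30 min at 37 °C in 5% CO2. Each arm was then split over 4 environments with 3 arrays each: the 1g, 2g and ug positions of a platform for a high magneto-gravitational environment, and an incubator. Every group, the incubator groups included, had received an antibody, and no group without one was analysed here. How long the dishes stayed on the platform is not given in the sources used here. The 4 arrays of 1 arm and 1 replicate number deviated together and are called a set, written IgG 1 to IgG 3 and E2 1 to E2 3. No label says that arrays came from separate cultures, so p-values measure the spread between these arrays, which may be technical.

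Several markers fitted the label of an osteocyte-like line and several did not. Pdpn and Gja1, which encode podoplanin and connexin 43, averaged 12.70 and 11.68 on the log2 scale of the array. The osteocyte genes Dmp1, Phex, Mepe and Ptprz1 averaged 4.74, 4.61, 4.60 and 3.76 and did not pass the filter. Sost, Fgf23 and Irx5, also osteocyte genes, averaged 7.07, 7.04 and 8.43 and did. Among chondrocyte genes Sox9 and Col2a1 averaged 9.91 and 7.62 and passed, while Acan and Matn1 averaged 5.77 and 5.57 and did not. Of 5 blood cell and macrophage genes Ptprc, Adgre1 and Itgam averaged 5.12, 4.58 and 5.62 and did not pass the filter, while Cd68 and Csf1r averaged 8.66 and 6.92 and did. In set IgG 2 the arrays at 2g and at ug went against the other sets: the difference of ug minus 2g correlated across 14489 genes with the mean of the other sets at r = -0.33, against 0.07 to 0.41 for the others. Their labels were kept, and the counts of members against the incubator and between the arms are also given without them, except over set means.

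NRF2, encoded by Nfe2l2, is a transcription factor that KEAP1 holds in the cytoplasm and marks for degradation in unstressed cells. When oxidants or electrophiles modify KEAP1, NRF2 enters the nucleus, pairs with small MAF proteins and binds antioxidant response elements near its target genes. The targets supply reduced thioredoxin, reduced glutathione and the NADPH that both need, and in bone cells this response limits damage by reactive oxygen.

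The core of the element can be written TGACNNNGC, and its letters were searched on both strands of the RefSeq promoter windows (GRCm38.p6), which run from 250 bases before to 50 bases after an annotated start. Of the 36 listed genes 31 had a window, and 10 of the 31 (32.3%) held the letters in at least 1, against 14.0% of 27025 genes. The 4 windows shown belong to the thioredoxin reductase Txnrd1, on which the platform comparison turns, to the glutathione synthesis gene Gclm and the sulfiredoxin Srxn1, whose levels followed Txnrd1 across sets, and to the peroxiredoxin Prdx1, whose levels did not. Capitals mark the match, which lies on the other strand in all 4 and therefore reads as its reverse complement.
Txnrd1, chr10:82858956-82859255, plus strand: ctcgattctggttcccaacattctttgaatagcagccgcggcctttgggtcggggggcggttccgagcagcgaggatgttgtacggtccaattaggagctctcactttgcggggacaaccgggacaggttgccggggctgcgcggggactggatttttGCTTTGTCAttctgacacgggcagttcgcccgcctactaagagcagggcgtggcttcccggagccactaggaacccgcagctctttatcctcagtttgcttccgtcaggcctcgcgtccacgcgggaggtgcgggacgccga
Gclm, chr3:122245307-122245606, plus strand: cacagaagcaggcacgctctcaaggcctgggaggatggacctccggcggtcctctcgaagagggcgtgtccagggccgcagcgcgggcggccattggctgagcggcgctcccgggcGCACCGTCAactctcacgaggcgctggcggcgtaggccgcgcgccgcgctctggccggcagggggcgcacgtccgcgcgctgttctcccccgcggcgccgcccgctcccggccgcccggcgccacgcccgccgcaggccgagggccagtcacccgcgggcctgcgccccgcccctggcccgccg
Srxn1, chr2:152105274-152105573, plus strand: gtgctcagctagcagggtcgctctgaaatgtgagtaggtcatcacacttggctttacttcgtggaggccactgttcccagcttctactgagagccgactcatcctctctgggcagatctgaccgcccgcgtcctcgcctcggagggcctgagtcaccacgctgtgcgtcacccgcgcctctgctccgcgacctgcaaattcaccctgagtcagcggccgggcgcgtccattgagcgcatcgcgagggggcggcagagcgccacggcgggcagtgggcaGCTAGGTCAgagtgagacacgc
Prdx1, chr4:116685349-116685648, plus strand: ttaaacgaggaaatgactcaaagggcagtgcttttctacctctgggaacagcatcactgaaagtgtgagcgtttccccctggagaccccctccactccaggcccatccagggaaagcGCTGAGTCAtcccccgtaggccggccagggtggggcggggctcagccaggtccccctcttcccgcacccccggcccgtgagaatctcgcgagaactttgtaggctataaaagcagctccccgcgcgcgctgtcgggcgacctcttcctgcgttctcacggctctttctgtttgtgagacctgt
The 4 matches read TGACAAAGC, TGACGGTGC, TGACCTAGC and TGACTCAGC on their own strand, in the order of the lines. The windows shown were picked among those with a match, and the other windows of Txnrd1 held none. Among members with the same lowest sets as Txnrd1, the windows of Slc7a11, Osgin1, Txnip, Prdx3, Gpx4, Gsto1, Sod2 and Mt1 held no match, whereas that of Mt2 did. A match describes the letters of a window and shows no binding.

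The first question was whether the module differed between the platform and the incubator, and it was asked within each arm for the mean of the 3 positions. In the IgG arm 1 member, Txnrd1, was lower on the platform in the limma fit with arm and replicate number as a block, against 0.704% of the 14489 genes in either direction and 0.587% that were lower. Of the 33 members 24 (72.7%) averaged below the incubator, against 48.2% of all genes and 62.2% of their brighter part, where most members lie. The median change was -0.05 on the log2 scale, against 0.00 over all genes and -0.03 over the brighter part of the genes. Under quantile normalization 21 of 33 were lower and the median was -0.02. At an unadjusted p under 0.05 stood 10 of 33 members, or 30.3%, against 20.3% of all genes.

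Thioredoxin reductase 1 is the cytosolic selenoenzyme that reduces oxidised thioredoxin with NADPH. In set IgG 1, Txnrd1 (probe set 10365260) was 11.48, 11.53 and 11.55 at the 1g, 2g and ug positions, against 11.80 in the incubator. In set IgG 2 it was 11.55, 11.50 and 11.55 at the positions, against 11.70 in the incubator. In set IgG 3 it was 11.17, 11.22 and 11.13 at the positions, against 11.31 in the incubator. Every position array lay below the incubator array of its own set. The groups overlapped when sets were pooled, because set IgG 3 was lower throughout. Slc7a11, Srxn1, Prdx3, Gclm, Gsr and Nqo1 also had every IgG position array below the incubator array of its own set. The share of all genes that did so was not counted. Here and below, ± is the SE of the limma fit. It pools the spread left between arrays, or between set means where those were compared, and is not the SE of the per-set changes. The change of Txnrd1 was -0.20 ± 0.04 (limma adjusted p = 0.0174, n = 3 sets), which is 12.6% lower. It did not pass without the block (adjusted p = 0.606), without set IgG 1, IgG 2 or IgG 3 (adjusted p = 0.233, 0.389 and 0.0867, changes of -0.15, -0.21 and -0.22), without the IgG 2 arrays at 2g and ug (-0.19, adjusted p = 0.126), or without a variance trend (adjusted p = 0.0571).

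All 7 thioredoxin members averaged below the incubator in the IgG arm, with a median of -0.09 and a range of -0.20 to -0.05, and all 7 did so under quantile normalization, with a median of -0.07. This holds for the brightest rows: the other row of Prdx2 changed by 0.01 in this arm. Prdx3, the mitochondrial peroxiredoxin, changed by -0.14 ± 0.04 (adjusted p = 0.0951 by limma, n = 3 sets). Srxn1, the sulfiredoxin that repairs overoxidised peroxiredoxins, changed by -0.16 ± 0.06 (limma, adjusted p = 0.141). The per-set changes of Srxn1 were -0.17, -0.16 and -0.15, the closest agreement of 3 sets among the 7. Txn1, thioredoxin itself, changed by -0.05 ± 0.03, and Prdx1 and Prdx2, cytosolic peroxiredoxins, by -0.09 ± 0.05 and -0.06 ± 0.04. Txnip, the thioredoxin-interacting protein that binds and inhibits thioredoxin, changed by -0.09 ± 0.10.

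Of the 11 glutathione members 7 were below the incubator in the IgG arm (6 under quantile normalization), with a median of -0.05, and none passed the adjusted threshold. Slc7a11 encodes the light subunit of the cystine importer that feeds glutathione synthesis. Its values were 10.97, 11.01 and 11.23 at the positions of set IgG 1, against 11.37 in the incubator. They were 10.95, 10.91 and 11.05 at the positions of set IgG 2, against 11.38 in the incubator. They were 9.64, 9.89 and 9.78 at the positions of set IgG 3, against 9.97 in the incubator. All 9 position arrays lay below their own incubator array, as for the other members named with Txnrd1. The change of -0.31 ± 0.08, or 19.2% lower, had a limma adjusted p of 0.0656. Gclm, the modifier subunit of the rate-limiting enzyme of glutathione synthesis, changed by -0.09 ± 0.03, and Gsr, glutathione reductase, by -0.09 ± 0.03 (limma adjusted p = 0.133 and 0.179). The transferase Gstp1 changed by 0.08 ± 0.03 and the lipid peroxidase Gpx4 by 0.07 ± 0.04.

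The 4 NADPH members showed no common direction: 2 were lower and 2 higher in the IgG arm, with a median of -0.01 that became 0.02 under quantile normalization. Me1, cytosolic malic enzyme, ranged from 10.84 through a median of 10.94 to 11.05 on the 9 position arrays, against 10.95, 10.98 and 11.08 in the incubator. These groups overlapped, and the change was -0.06 ± 0.04 (limma adjusted p = 0.408). Pgd and the sugar-exchanging enzymes Taldo1 and Tkt of the pentose phosphate pathway changed by -0.03 ± 0.03, 0.07 ± 0.05 and 0.02 ± 0.05.

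Among the regulators Nfe2l2, which encodes NRF2, ranged from 12.32 through a median of 12.39 to 12.57 at the positions of the IgG arm, against 12.48, 12.49 and 12.56 in the incubator. The groups overlapped and the change was -0.09 ± 0.03 (limma adjusted p = 0.140), while Keap1 changed by 0.06 ± 0.06. Nqo1, a quinone reductase often read as an index of NRF2 activity, ranged from 11.98 through a median of 12.06 to 12.07 at the positions, against 12.13, 12.13 and 12.18 in the incubator. It was the 1 member of 33 whose 9 position arrays all lay below the 3 incubator arrays, as 1.9% of genes did and 3.62% in either direction. Its change was -0.10 ± 0.03 (limma adjusted p = 0.0581). Sod2, the mitochondrial superoxide dismutase, ranged from 12.55 through 12.62 to 12.66 at the positions, against 12.62, 12.72 and 12.73 in the incubator. Its groups overlapped, with a change of -0.08 ± 0.03 (limma adjusted p = 0.187). Mt2, a metallothionein that binds zinc and copper, ranged from 12.80 through 12.92 to 13.03 at the positions, against 12.91, 12.93 and 13.02 in the incubator. These groups overlapped, with a change of -0.03 ± 0.04, and Mt1 changed by -0.02 ± 0.06.

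Without the IgG 2 arrays at 2g and ug, 24 of 33 members were again below the incubator, with a median of -0.04. No member was called, 8 stood at an unadjusted p under 0.05 (24.2%, against 11.8% of genes), and 4 genes were called in place of 102. The changes were -0.27 for Slc7a11, -0.11 for Nqo1, -0.13 for Prdx3 and -0.16 for Srxn1 (limma adjusted p = 0.279, 0.201, 0.316 and 0.366).

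In the E2 arm no member and 0 of 14489 genes (0%) passed the adjusted threshold for the mean of the positions, and 2 members stood at an unadjusted p under 0.05, against 6.93% of genes. Of the 33 members 21 were above the incubator, against 5644 of 14489 genes and 3356 of the 7245 genes of their brighter part. The median was 0.03, against -0.02 over all genes and -0.01 over the brighter part. Under quantile normalization 18 members were above the incubator, with a median of 0.01. Txnrd1 was 11.18, 11.18 and 11.27 at the positions of set E2 1, against 11.26 in the incubator. It was 11.16, 11.12 and 11.10 at the positions of set E2 2, against 11.13 in the incubator. It was 11.47, 11.51 and 11.48 at the positions of set E2 3, against 11.58 in the incubator. Only in the last of these sets did every position lie below the incubator, and the change was -0.05 ± 0.04 (limma adjusted p = 0.791).

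Gsta4, a glutathione transferase that conjugates the lipid peroxidation product 4-hydroxynonenal, had the smallest p of the members in the E2 arm. It ranged from 7.88 through a median of 8.25 to 8.62 at the positions, against 7.80, 8.12 and 8.18 in the incubator. These groups overlapped, all 3 sets were higher on the platform, and the change was 0.18 ± 0.07 (limma adjusted p = 0.647). Pgd, which makes NADPH from 6-phosphogluconate, ranged from 12.06 through 12.17 to 12.23 at the positions, against 12.07, 12.10 and 12.11 in the incubator, a change of 0.07 ± 0.03 (limma adjusted p = 0.701). Sod1, the cytosolic superoxide dismutase, ranged from 12.39 through 12.50 to 12.64 at the positions, against 12.42, 12.46 and 12.49 in the incubator, a change of 0.05 ± 0.03. For both Pgd and Sod1 the groups overlapped. Keap1 ranged from 8.76 through 9.03 to 9.10 at the positions, against 9.03, 9.06 and 9.07 in the incubator, a change of -0.07 ± 0.06. Mt1 ranged from 12.72 through 12.93 to 13.15 at the positions, against 12.74, 12.87 and 12.93 in the incubator, a change of 0.07 ± 0.06. The biliverdin reductase Blvrb ranged from 11.45 through 11.62 to 11.85 at the positions, against 11.52, 11.52 and 11.65 in the incubator, a change of 0.06 ± 0.04. The groups overlapped for these 3 genes as well. The medians by branch were 0.03 for thioredoxin, 0.02 for glutathione and 0.06 for NADPH. Under quantile normalization they were 0.01, -0.01 and 0.05.

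**Figure D1:**
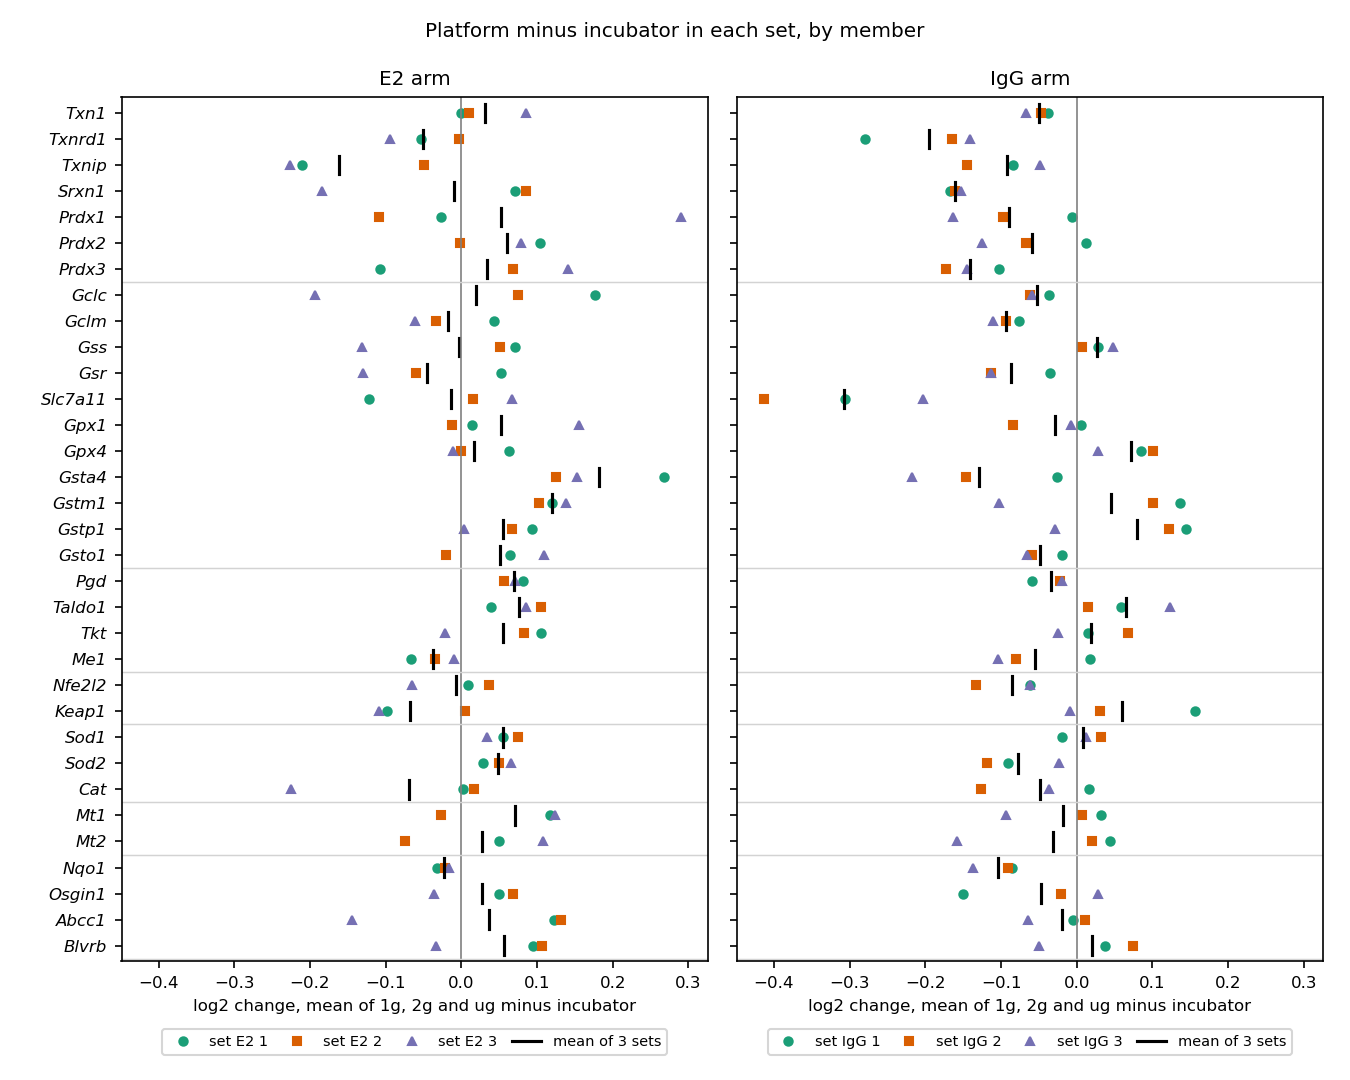
Log2 change of each member on the platform (mean of the 1g, 2g and ug arrays) minus the incubator array of the same set, with the E2 arm left and the IgG arm right; points are the 3 sets, black bars their mean, and grey lines part the branches. In the IgG arm all 7 thioredoxin means lie below 0, Slc7a11 has the lowest mean (-0.31), and in the E2 arm Gsta4 has the highest (0.18).

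The platform changes of the arms were then set against each other in the same fit. Neither the 33 members nor the 14489 genes held a call (0%). At an unadjusted p under 0.05 stood 10 members (30.3%), all with the E2 change above the IgG change. Of all genes 12.1% did so in either direction and 5.11% with the E2 change above. The brighter part of the genes leaned the same way: of 7245 genes, 549 stood there with the E2 change above and 138 with it below. The median difference was 0.08 over the members, and 0.03 under quantile normalization, against 0.02 and -0.01 over the brighter part of the genes. By branch it was 0.14 for thioredoxin, 0.08 for glutathione and 0.03 for NADPH, and under quantile normalization 0.08, 0.03 and -0.01. The members with the smallest p were Gsta4 (0.31 ± 0.10), Prdx3 (0.17 ± 0.06), Txnrd1 (0.14 ± 0.05), Sod2 (0.13 ± 0.04) and Slc7a11 (0.29 ± 0.11). Their limma adjusted p-values lay between 0.303 and 0.350, so a different platform response of the arms was not shown for any member. Without the IgG 2 arrays at 2g and ug, 7 members stood at an unadjusted p under 0.05, against 7.49% of genes, and none was called.

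Single positions gave no call in either arm. In limma no member and 0% of genes passed for 1g, 2g or ug against the incubator, or for 2g or ug against 1g, with n = 3 arrays a group. At an unadjusted p under 0.05 the E2 arm had 0, 1 and 0 members at 1g, 2g and ug, against 3.13%, 1.97% and 4.22% of genes. The IgG arm had 2, 1 and 1 members, against 6.11%, 8.78% and 5.16% of genes. Members whose groups did not overlap numbered 1, 2 and 3 in the E2 arm, where 5.51%, 4.79% and 8.07% of genes did the same. They numbered 5, 3 and 3 in the IgG arm, where the shares of genes were 15.9%, 19.3% and 13%. Against 1g, 1 member stood at an unadjusted p under 0.05 at 2g and 1 at ug in the E2 arm, against 2.46% and 3.54% of genes. In the IgG arm 0 members did so at either position, against 1.79% and 1.12% of genes.

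These fits had no block. With the set as a block, 7 genes but no member were called at 1g in the IgG arm, and 0 genes at the other positions of either arm. At an unadjusted p under 0.05 the block gave 5, 2 and 4 members at 1g, 2g and ug against the incubator in the E2 arm, against 6.77%, 4.91% and 10.2% of genes. It gave 9, 9 and 8 members in the IgG arm, against 15.2%, 17.6% and 10.9% of genes. Leaving out the IgG 2 arrays at 2g and ug instead gave 0 members at 2g and 2 at ug in the IgG arm, against 4.95% and 3.26% of genes, with none called.

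Txnip was lower at ug than in the other environments of most sets. Its ug array was the lowest of the 4 arrays in 5 of 6 sets. This order was noticed among the members after their values had been seen. How many of all genes had 1 environment lowest or highest in as many sets was not counted. In set E2 1 it was 10.88 at ug, against 11.17 at 1g, 11.16 at 2g and 11.28 in the incubator. In set E2 2 it was 10.82 at ug, against 11.36, 11.37 and 11.23 in those environments. In set E2 3 it was 11.18 at ug, against 11.39, 11.50 and 11.58. The 3 ug arrays of the E2 arm thus stood lowest, each within its own set. In set IgG 1 the ug array held 10.97, against 11.57, 11.71 and 11.50 in the same order, and in set IgG 3 it held 10.31, against 10.91, 10.88 and 10.75. Set IgG 2 was the exception, with 11.39 at ug, against 11.31 at 1g, 11.09 at 2g and 11.41 in the incubator. There the 2g array was the lowest, and it is 1 of the 2 arrays that went against the other sets.

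A comparison of ug with the mean of the other 3 environments over both arms was added after these values had been seen, so its p is no independent evidence. Txnip changed by -0.36 ± 0.07 (limma with the set block, adjusted p = 0.0226, n = 6 sets), which is 22.2% lower, and was lower in 5 of 6 sets. Per set, Txnip changed by -0.33, -0.51 and -0.31 in sets E2 1 to E2 3 and by -0.62, 0.12 and -0.53 in sets IgG 1 to IgG 3. It was the 1 member called, against 0.366% of genes in either direction and 0.0966% that were lower. Leaving out those IgG 2 arrays at 2g and ug, the change was -0.48, and 152 genes were called in place of 53. Those arrays had been singled out by their ug minus 2g difference over all genes, Txnip included, so the values without them, here and for Hmox1, give no separate support. The call was lost without the block (adjusted p = 0.847), without a variance trend (adjusted p = 0.0665) and without set IgG 1, IgG 3, E2 2 or E2 3 (changes of -0.29, -0.32, -0.33 and -0.38, adjusted p = 0.185, 0.378, 0.313 and 0.0584). The next members by p were Gclc and Osgin1 (limma adjusted p = 0.240 and 0.238). Gclc, the catalytic subunit of glutathione synthesis, changed by 0.15 ± 0.05, and Osgin1, an oxidative stress-induced growth inhibitor, by 0.13 ± 0.04. The ug array of Gclc was the highest of sets E2 1, E2 2, IgG 1 and IgG 3. It was the lowest of set E2 3 and neither in set IgG 2.

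Of 69 further NRF2 and redox genes 61 were tested, and Hmox1 was the 1 called in the ug comparison. It encodes heme oxygenase 1, which degrades heme and is a classic NRF2 and BACH1 target. Its ug array was above the mean of the other environments by 0.33, 0.53 and 0.06 in sets E2 1 to E2 3. In sets IgG 1 to IgG 3 the difference was 0.22, -0.02 and 0.57. The rise was largest in sets E2 1, E2 2 and IgG 3, where Hmox1 was low, between 11.08 and 11.80. In the other sets it lay between 12.09 and 12.69, and in set E2 3 the 2g array (12.69) exceeded ug (12.64). Whether the rise depends on the level of a set was not tested. The change was 0.28 ± 0.06, or 21.5% higher (limma adjusted p = 0.0483), in 5 of 6 sets, and set IgG 2 was again the exception. Leaving out its arrays at 2g and ug, it was 0.35. The call was lost under quantile normalization (adjusted p = 0.0700), without the block (adjusted p = 1), without a variance trend (adjusted p = 0.120), and without any set but IgG 2, with adjusted p between 0.0514 and 0.642 and changes from 0.20 to 0.34.

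**Figure D2:**
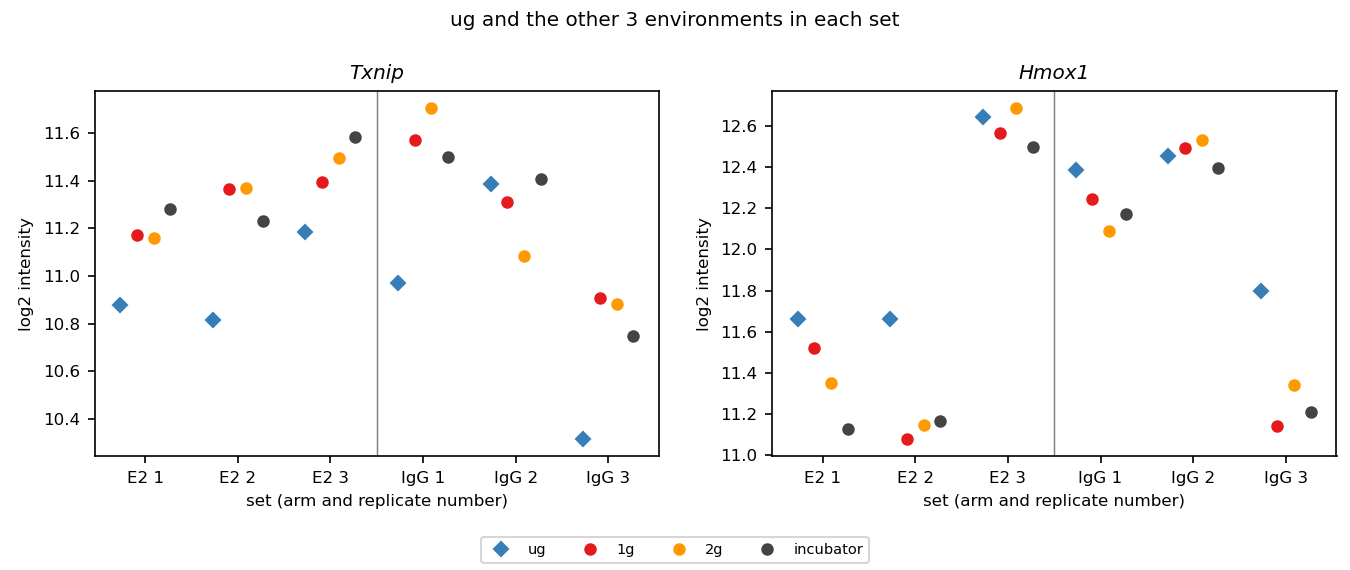
Log2 intensity of Txnip (left) and Hmox1 (right) on each array, by set; diamonds are ug arrays and circles the 1g, 2g and incubator arrays of the same set. The ug diamond of Txnip is the lowest of its set in 5 of 6 sets, and that of Hmox1 lies above the mean of the other 3 environments in every set but IgG 2.

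In the platform comparison none of the 61 further genes was called in either arm. In the E2 arm 40 of 61 were above the incubator, against 5644 of 14489 genes and 3356 of the 7245 brighter ones. Of the 61, 9 (14.8%) stood at an unadjusted p under 0.05, against 6.93% of genes. The smallest p belonged to Rbx1, a subunit of the ubiquitin ligase that KEAP1 recruits, at 0.11 ± 0.04 (limma adjusted p = 0.622). In the IgG arm 35 of 61 were below the incubator, where 48.2% of genes and 62.2% of the brighter ones were. Under quantile normalization 25 of 61 were below it. In the fit reported, 7 of the IgG arm (11.5%) stood at an unadjusted p under 0.05, against 20.3% of genes. Txnrd3, the thioredoxin reductase that also reduces glutathione, had the smallest p there, with -0.27 ± 0.06 (limma adjusted p = 0.0517) and changes of -0.26, -0.24 and -0.29 in the 3 sets. Cul3, the scaffold of that ligase, changed by -0.23 ± 0.07 (limma adjusted p = 0.0948).

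The antibody comparison asked whether the arms differed at the same environment. In the incubator 2.92% of genes were called between E2 and IgG but none of the members, of which 8 stood at an unadjusted p under 0.05, against 29.9% of genes. Sod2 came closest, with 12.31, 12.43 and 12.55 on the E2 arrays, against 12.72, 12.73 and 12.62 on the IgG arrays. Every E2 array lay below every IgG array, as in 16.1% of genes. The arms did not overlap in 9 members and in 35% of genes in either direction, and for Sod2 the difference was -0.26 ± 0.08 (limma adjusted p = 0.0642). Fth1, the ferritin heavy chain and one of the further genes, was called at -0.11 ± 0.03 (limma adjusted p = 0.0464). Its values were 13.40, 13.43 and 13.43 on the E2 arrays, against 13.52, 13.55 and 13.53 on the IgG arrays. That call was lost under quantile normalization (adjusted p = 0.0797), with dim rows kept (adjusted p = 0.0577), without a variance trend (adjusted p = 0.125) and without any single set (adjusted p between 0.0511 and 0.303). At 1g, 2g and ug no gene (0%) and no member was called, and 5, 3 and 3 members stood at an unadjusted p under 0.05, against 12.5%, 4.32% and 12.9% of genes. Without the IgG 2 arrays at 2g and ug, 3 and 2 members did so at 2g and ug, against 3.91% and 8.79% of genes, as did 6 members in the incubator, against 27.8% of genes, and no gene was called in any environment, the incubator included.

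Over set means, with 3 E2 sets and 3 IgG sets, no gene (0%) and no member was called, and 4 members stood at an unadjusted p under 0.05, against 21.6% of genes. Blvrb, which reduces biliverdin and flavins with NADPH, had the smallest p, with a difference of 0.26 ± 0.07 (limma adjusted p = 0.147). It ranged from 11.45 to 11.85 on the 12 E2 arrays, against 11.24 to 11.44 on the 12 IgG arrays. All E2 arrays lay above all IgG arrays. The arms did not overlap in 0.131% of genes in either direction, and E2 was the higher arm in 1 of them, Blvrb itself (0.0069%). Without set E2 3, Blvrb (0.31, limma adjusted p = 0.0362) and Gsta4 (0.37, adjusted p = 0.0396) were called over set means, among 736 genes. Without that set Sod2 was called in the incubator (-0.32, limma adjusted p = 0.0380), among 589 genes. At 1g the members called without it were Blvrb (0.38), Gsta4 (0.52), Nqo1 (0.17) and Sod1 (0.25), with limma adjusted p from 0.0217 to 0.0488, among 773 genes. These fits keep only sets E2 1 and E2 2 in the E2 arm, which shared a pattern of levels with set IgG 3, described below. That pattern and the antibody cannot be fully told apart in these calls. Nqo1 at 1g was 12.24 and 12.21 in sets E2 1 and E2 2 but 11.98 in set E2 3, against 12.06 in each IgG set. Slc7a11 differed by -0.68 ± 0.51 (limma adjusted p = 0.456), with sets of both arms at both ends of its range.

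**Figure D3:**
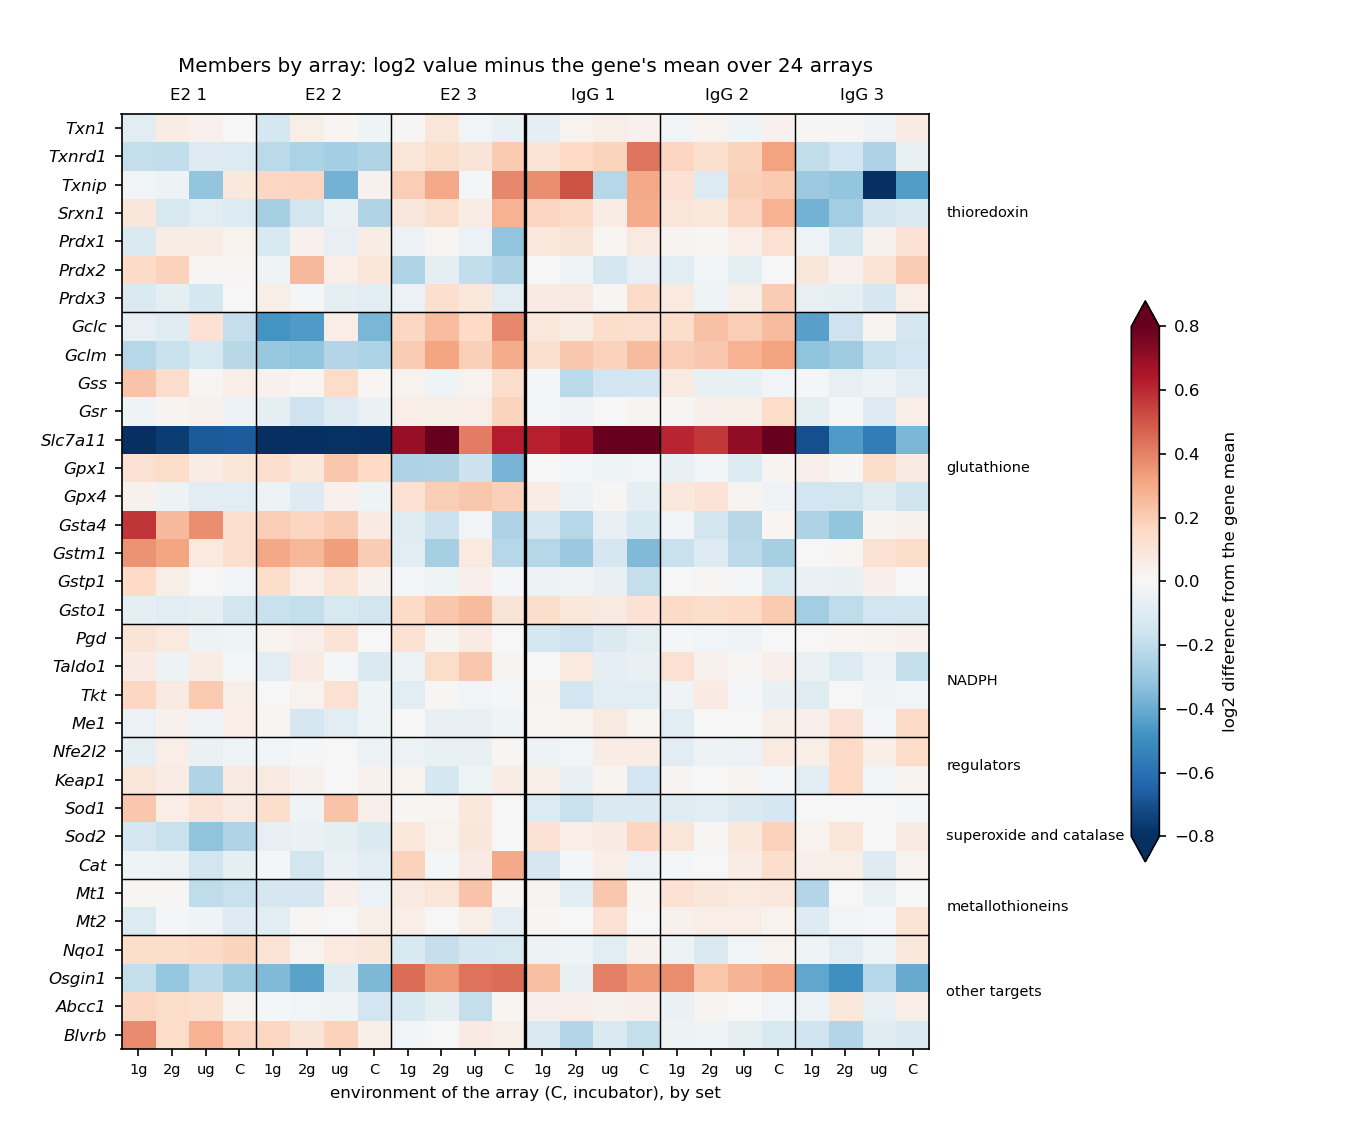
Log2 value of each of the 33 members on each of the 24 arrays minus the member's mean over all arrays, with the E2 sets left and the IgG sets right; colours are cut at 0.8 in either direction. Slc7a11, Osgin1, Gclm and Txnrd1 part the sets more than the environments, and Txn1 and Keap1 stay near 0.

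For 23 of 33 members the SD of the 6 set means exceeded the SD of the 4 arrays within a set, as it did for 6999 of 14489 genes. Slc7a11 set means were 9.58, 9.41 and 11.02 in sets E2 1 to E2 3 and 11.14, 11.07 and 9.82 in sets IgG 1 to IgG 3. Their range of 1.74 ranked 15th of 14489 genes, while the SD of the 4 arrays within a set was between 0.13 and 0.23. Osgin1 set means were 8.70, 8.64 and 9.37 in sets E2 1 to E2 3 and 9.18, 9.24 and 8.56 in sets IgG 1 to IgG 3. Sets E2 1, E2 2 and IgG 3 were therefore the low ones for both genes. The same 3 sets were lowest for 13 of 33 members (39.4%), against 20.1% of genes, and highest for 4 (12.1%), against 16.9% of genes.

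The 13 members were Txnrd1, Txnip, Srxn1, Prdx3, Gclc, Gclm, Slc7a11, Gpx4, Gsto1, Sod2, Mt1, Mt2 and Osgin1. The 4 that ran the other way were Prdx2, the selenoenzyme Gpx1, the transferase Gstm1 and Nqo1. For Nqo1 the arrays of the IgG sets overlapped, so its order rests on the E2 sets. Set means of Gstm1 were 11.31, 11.37 and 10.96 in sets E2 1 to E2 3 and 10.84, 10.90 and 11.16 in sets IgG 1 to IgG 3. Ranges of set means were 0.53 for Gclm, 0.46 for Txnrd1 and 0.55 for Gclc, but 0.04 for Txn1 and 0.07 for Keap1. Over the members the median SD of set means was 0.101 and the median SD within sets 0.065, against 0.098 and 0.104 over all genes. The 3 sets were singled out by the values of Slc7a11, which is itself among the 13, so these counts are a description with no test. The shares in the brighter part of the genes, where most members lie, were not counted. What the dishes or arrays of a set shared is not given in the sources used here, and its part in these values was not tested. In such bulk RNA, fewer cells of a kind and less RNA per cell cannot be told apart.

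**Figure D4:**
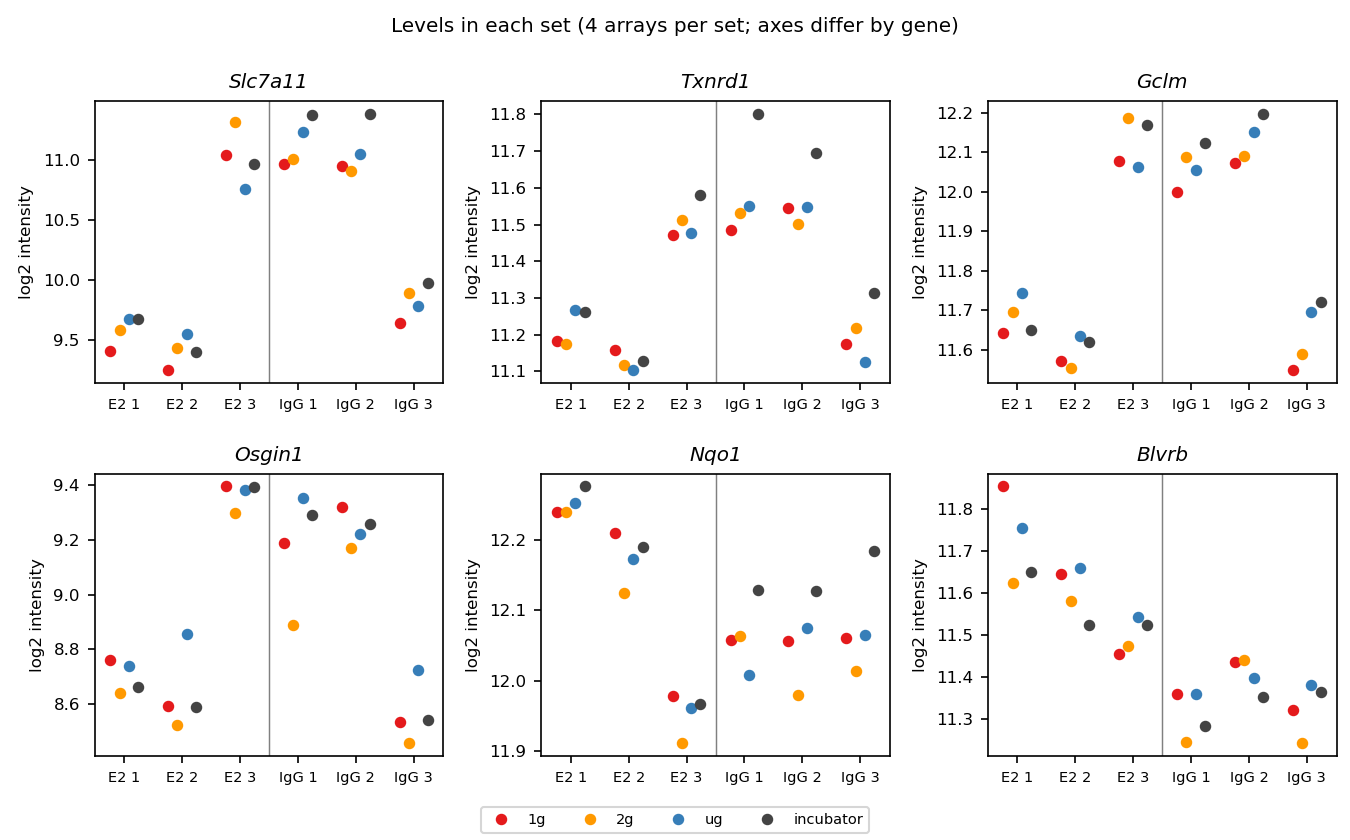
Log2 intensity of 6 members on each array, by set, with E2 sets left of IgG sets and colours for the environment; the axes differ between panels. Slc7a11, Txnrd1, Gclm and Osgin1 are low in sets E2 1, E2 2 and IgG 3. Nqo1 runs the other way in the E2 sets, while its IgG sets overlap, and every E2 array of Blvrb lies above every IgG array.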

How the data were processed

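Total RNA of MLO-Y4 cells was measured on 24 arrays, 3 in each of 8 groups read from titles and source names. As deposited, the table holds log2 intensities, a unit inferred from their range of 2.36 to 14.06 and array medians of 6.48 to 6.65. MAS5 was used per the submitters' processing notes, without a stated role or version; the scaling between arrays is not given in the sources used here. Arrays give no counts, and their number limits the precision.

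Rows had to reach the 40th percentile on at least 3 of the arrays, and the brightest row of a single symbol stood for a gene. Tests used limma 3.58.1 (R 4.3.3) with a variance trend, two-sided, with Benjamini-Hochberg adjustment over 14489 genes and a threshold of 0.05. Single environments and antibodies were compared over 8 group means without a block, with 16 residual degrees of freedom. The mean of positions, the difference between arms and the ug comparison had arm and replicate number as a block of 6 levels, and set means were compared 3 against 3. The numbers pair arrays within an arm: all 36 pairs of arrays of 1 arm and number deviated from their group means together (r from 0.195 to 0.812), whereas all 48 pairs of 1 number across arms had r from -0.748 to -0.014. The block gave 7 genes and no member at 1g against the incubator in the IgG arm, where the fit without it gave 0.

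No 2 replicates held the same values: the SD of their differences was 0.122 to 0.354 over 24 pairs. Tested on simulated data, the blocked fit recovered 40% of genes altered by 0.25 on the log2 scale and 90% of those altered by 0.5 in the IgG platform comparison. The simulation raised 50 genes by each of 0.25, 0.5, 1 and 2 and drew its noise independently for each gene. In the deposited arrays few genes were called and genes deviated together, so recovery there may be lower. Array values, or the lowest, median and highest of the 9 position arrays, are given for members called and for the member with the smallest p in each branch and arm; most other members appear by their changes. The members, the further genes and the tests were chosen with earlier results of these data known. Alternatives were quantile normalization, no filter, averaging a gene's rows, a constant prior variance, each replicate left out, the 2 arrays of set IgG 2 left out, other blocks and fits of only the groups compared.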

Additional observations from a re-analysis of the deposited data

Results flagged for a closer look

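Gsta4, Pgd and Sod2 moved one way on the platform in every set of the E2 arm and the opposite way in every set of the IgG arm. For Gsta4 the change, as the mean of the positions minus the incubator, was 0.27, 0.13 and 0.15 in sets E2 1 to E2 3 and -0.03, -0.15 and -0.22 in sets IgG 1 to IgG 3. The difference between arms was 0.31 (limma adjusted p = 0.303). For Pgd the changes were 0.08, 0.06 and 0.07 in the E2 sets and -0.06, -0.02 and -0.02 in the IgG sets, with a difference of 0.10 (limma adjusted p = 0.359). For Sod2 they were 0.03, 0.05 and 0.07 in the E2 sets and -0.09, -0.12 and -0.02 in the IgG sets, with a difference of 0.13 (limma adjusted p = 0.333). None of the 3 differences passed the adjusted threshold. How many of all genes had opposite directions in every set of the arms was not counted. In the brighter part of the genes, which holds Pgd and Sod2, 4463 of 7245 genes had an E2 change above the IgG change.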

How the results depend on the processing

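For members called, 191 results under an alternative kept their count within 1.5 times and 17 moved. The Txnrd1 call in the IgG platform comparison (1 member) became 0 with no variance trend, with no replicate block, with a random replicate block and without the IgG 2 arrays at 2g and ug, and ranged from 0 to 0 when each IgG set was left out. Its value with no replicate block was -0.20 (limma adjusted p = 0.606). The Txnip call in the added ug comparison (1 member) became 0 with no variance trend, with no replicate block and with a random replicate block, and ranged from 0 to 1 when each set was left out. Between E2 and IgG, 0 members became 1 in the incubator, 4 at 1g and 2 over set means without set E2 3, and stayed 0 without any other set. Mt2 in the IgG platform comparison (-0.031) ranged from -0.069 to 0.032 when each IgG set was left out, and turned to 0.032 without set IgG 3; the cause was not tested. Of the changes of single named genes under an alternative, 144 kept their side of the threshold and 34 did not, namely 7 for Txnrd1, 7 for Txnip, 9 for Hmox1 and 11 for Fth1, all in the same direction. The replicate block changed no other call of a member. Counts of all genes called ranged over the alternatives from 0 to 101 in the IgG platform comparison (102 in the fit reported), from 0 to 152 in the ug comparison (53) and from 0 to 1355 between E2 and IgG in the incubator (423). The comparison of set means was not run without the IgG 2 arrays at 2g and ug. At 0.25 on the log2 scale, changes in single positions were mostly beyond the fit without the block, which recovered 6% of them in simulated data at 1g in the IgG arm.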

Other observations

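A second row with a single symbol was listed for Prdx1, Prdx2, Gpx4 and Me1. On the platform the second row of Prdx1 changed by 0.13 in the E2 arm and -0.11 in the IgG arm, and the row used above by 0.05 and -0.09 in those arms. The 0.05 of the row used rests on set E2 3, with changes of -0.03, -0.11 and 0.29 in sets E2 1 to E2 3. The second row of Prdx2 changed by 0.13 in the E2 arm and 0.01 in the IgG arm, where the row used above changed by 0.06 and -0.06. The rows of Prdx2 thus differed in sign in the IgG arm, and neither change was tested against the other. The second row of Gpx4 changed by 0.01 in the E2 arm and 0.06 in the IgG arm, and the row used by 0.02 and 0.07. For Me1 the second row changed by -0.02 and -0.09 in those arms, and the row used by -0.04 and -0.06.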
